A study of Mus musculus with 9 samples.

Results

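Neutrophils carry granules that are filled in a fixed order while the cell matures in the marrow. The serine proteases and myeloperoxidase of the primary granules are transcribed in promyelocytes, and lactoferrin, cathelicidin and other proteins of the specific granules follow in myelocytes and metamyelocytes. The transcripts of the primary granule proteins are then shut off, so blood neutrophils hold the proteins but little of their mRNA, while S100a8 and S100a9, whose products form the cytosolic protein calprotectin, are still transcribed in mature neutrophils and also in monocytes.

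Levels of 10 neutrophil granule genes were taken from a table of 54532 mouse genes by their gene names. Mpo, Elane, Prtn3 and Ctsg were the 4 primary granule genes, and Ltf, Camp, Ngp, Lcn2, S100a8 and S100a9 were the 6 later genes. All 10 passed the filter for testing, which asked for 1 FPKM or more in 3 or more samples and which 12746 genes passed. FPKM are by definition fragments scaled to gene length and to the mapped fragments of the sample, so levels of different genes can be set side by side on this scale. Mpo, Elane and Ctsg reached the filter through exactly 3 samples, so they could be tested because of the samples in which they were high.

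The 9 samples were bulk RNA-seq libraries of sorted spleen cells, with 3 samples in each of 3 groups. T-DCs were CD11c+MHCIIlo cells from the spleens of mice with T cell acute lymphoblastic leukemia (T-ALL), T-mDCs were mature conventional dendritic cells (cDCs) from T-ALL mice, and N-mDCs were mature cDCs from normal mice. In the study's model, c-kit+ bone marrow cells of C57BL/6J mice were infected with the retrovirus MSCV-ICN1-IRES-GFP, which carries the intracellular domain of Notch1, and GFP+ leukemia cells from a first recipient were given to C57BL/6J or C57B6.SJL mice that were not irradiated. The mice were females of 6 to 8 weeks, and cells were sorted on day 15 after transfer. Red blood cells were removed by lysis and CD11c+ cells were enriched on microbeads before sorting. The T-DC gate is described as GFP- and as leaving out lymphoid cells, with no granulocyte marker named in it. No source used here says how many animals were in a sample or whether samples came from separate animals, so p-values measure the spread between these samples. In bulk samples, fewer cells of a type and less RNA per cell cannot be told apart.

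Samples held 15360815 to 18440913 reads on genes. The size to which the FPKM were scaled differed from this count. It was 15498648 beside 16977553 reads in T-DC sample 2, and 18878243 beside 17559243 reads in T-mDC sample 1. The sources used here do not say how it was set. The labelled cell type was checked with 8 cDC markers, of which 6 (Flt3, Zbtb46, Xcr1, Clec9a, Cd209a and Dpp4) were called lower in T-DCs in both of their comparisons. The T-DC samples were not alike. Globin transcripts took 3.82% and 3.005% of the reads of T-DC samples 2 and 3, 0.0422% of those of T-DC sample 1, 0.405% of those of N-mDC sample 2, and at most 0.0367% in the other 5 samples. All 8 erythroid genes examined were highest in T-DC samples 2 and 3, beside 20.5% of all tested genes. Results are therefore also given without those samples or without T-DC sample 1. T-mDC samples 2 and 3 were close to each other and apart from T-mDC sample 1. Xcr1 was at 63.8 and 63.2 against 25.4 FPKM, and Vcam1 at 34.2 and 34.2 against 140 FPKM. They may not be independent, so results are also given with these 2 averaged into 1.

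The 10 genes lie on 6 chromosomes of the GRCm38 (mm10) assembly, each taken as a whole gene. Mpo (ENSMUSG00000009350) lies at chr11:87793581-87804413. Prtn3 (ENSMUSG00000057729, chr10:79874476-79883174) and Elane (ENSMUSG00000020125, chr10:79886247-79888215) are 3072 bases apart. Ctsg (ENSMUSG00000040314) lies at chr14:56099881-56102574. Camp (ENSMUSG00000038357, chr9:109847379-109849617), Ngp (ENSMUSG00000032484, chr9:110419747-110423012) and Ltf (ENSMUSG00000032496, chr9:111019271-111042767) are on the same chromosome, 570129 and 596258 bases from one to the next. Lcn2 (ENSMUSG00000026822) lies at chr2:32384633-32388252. S100a8 (ENSMUSG00000056054, chr3:90668978-90670035) and S100a9 (ENSMUSG00000056071, chr3:90692632-90695721) are 22596 bases apart. The annotation (GENCODE M21) places Plppr3 over Prtn3 and the antisense gene Gm11505 over Mpo, both on the opposite strand. The sources used here do not say whether counting used strand, so Prtn3 and Mpo reads could include reads of these genes. Gm11505 had 0 reads in all 9 samples. Plppr3 lay between 0.846 and 2.92 FPKM and did not follow Prtn3.

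The promoters of the genes are shown so that the primary genes can be compared in sequence with the later genes, from which they differed in level between N-mDC samples 2 and 3. They were taken from the RefSeq table of the GRCm38.p6 build, which had an entry for all 10 genes, and the 250 bases before each start were searched on both strands for 2 patterns. GAGGAA (reverse TTCCTC) is a core of sites for PU.1, the product of Spi1, and TTNCNNAA (reverse TTNNGNAA) is a loose form of sites for the C/EBP family. Both factor families act in granulocyte development. Shown are the stretches that lie outside annotated exons for the 4 primary genes, and for Ltf and Ngp, which were picked among the later genes after their matches were seen. Each runs 5′ to 3′ on the strand of its gene, and capitals mark every match to either pattern.
Mpo, chr11:87793534-87793580, + strand: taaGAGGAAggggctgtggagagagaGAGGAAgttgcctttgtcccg
Elane, chr10:79886062-79886246, + strand: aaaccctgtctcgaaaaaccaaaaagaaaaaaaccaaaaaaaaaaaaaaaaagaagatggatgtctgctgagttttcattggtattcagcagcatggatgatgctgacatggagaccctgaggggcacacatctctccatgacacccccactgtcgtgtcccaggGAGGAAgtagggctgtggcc
Prtn3, chr10:79879417-79879613, + strand: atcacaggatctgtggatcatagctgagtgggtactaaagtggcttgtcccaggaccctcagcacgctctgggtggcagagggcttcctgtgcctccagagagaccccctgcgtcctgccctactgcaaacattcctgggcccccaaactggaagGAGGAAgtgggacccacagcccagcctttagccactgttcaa
Ctsg, chr14:56102575-56102824, - strand: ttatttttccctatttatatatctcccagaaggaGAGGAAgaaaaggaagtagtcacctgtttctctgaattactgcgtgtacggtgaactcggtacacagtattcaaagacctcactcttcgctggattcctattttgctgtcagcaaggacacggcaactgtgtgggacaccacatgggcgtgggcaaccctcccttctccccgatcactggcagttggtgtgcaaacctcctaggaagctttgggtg
Ltf, chr9:111019042-111019270, + strand: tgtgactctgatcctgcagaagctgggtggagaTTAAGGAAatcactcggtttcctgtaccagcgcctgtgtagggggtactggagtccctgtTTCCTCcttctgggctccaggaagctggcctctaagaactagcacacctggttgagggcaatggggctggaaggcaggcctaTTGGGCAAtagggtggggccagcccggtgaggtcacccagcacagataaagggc
Ngp, chr9:110419558-110419746, + strand: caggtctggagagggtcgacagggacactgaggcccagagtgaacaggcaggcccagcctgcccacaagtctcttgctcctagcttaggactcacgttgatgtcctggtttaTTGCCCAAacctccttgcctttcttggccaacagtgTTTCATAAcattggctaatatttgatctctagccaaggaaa

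GAGGAA was found in the windows of 4 of 4 primary genes and 3 of 6 later genes, and 23.3% of 32851 promoter windows of the same length held it. TTNCNNAA was found in 0 of 4 primary genes and 5 of 6 later genes, against 36.8% of all windows. The windows of 8 of the 10 genes overlapped annotated exons of the gene itself, by up to 203 bases in Mpo, and those of Prtn3 and Lcn2 lie inside the longer GENCODE gene. Counting only matches outside these exons, GAGGAA was in 4 of 4 primary genes and 2 of 6 later genes and TTNCNNAA in 0 of 4 and 4 of 6, while the shares of all windows are of whole windows. A match is a stretch of letters, and binding was not measured here.

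All 10 genes were highest in T-DC sample 2 and next highest in T-DC sample 3. Of all tested genes, 6.72% had that order, and 20.5% had T-DC samples 2 and 3 above the other 7 in either order. N-mDC samples 2 and 3 came next for all 10 genes, so the same 4 samples stood above the other 5 each time, a pattern that 1.98% of tested genes showed. The order of T-DC samples 2 and 3 was the same for the 10 genes when the values were rescaled to TPM, quantile normalised or taken as TMM-scaled reads. These orders are descriptions and were not tested, since the split of the samples was proposed with results known.

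**Figure D1:**
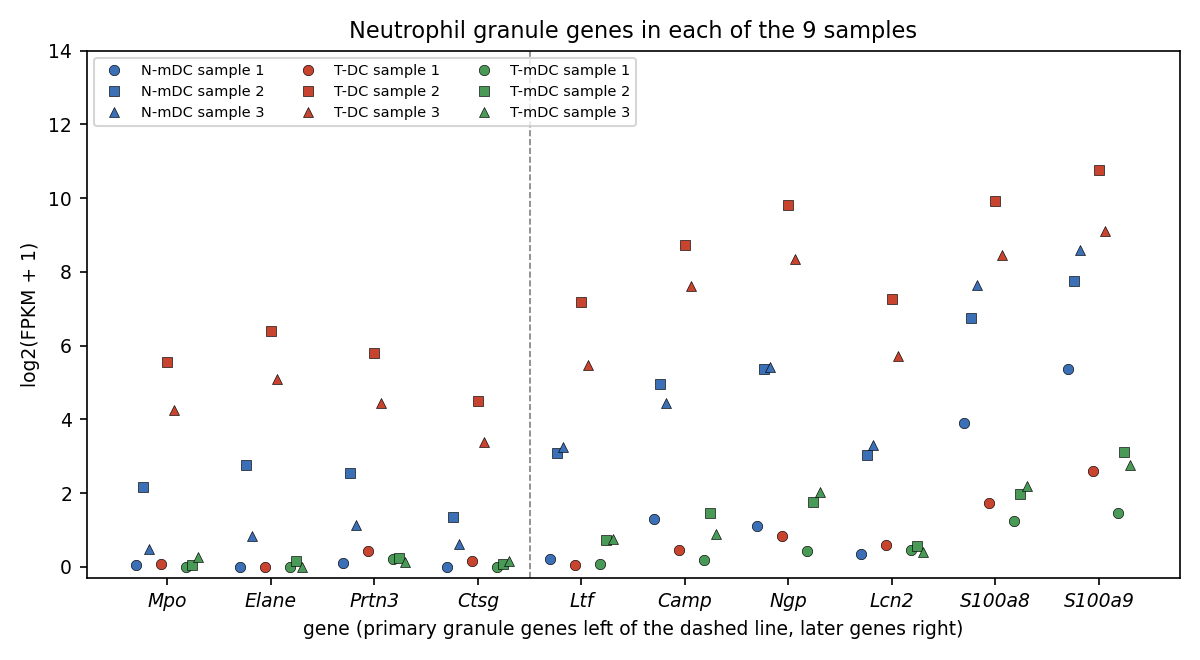
Level of each of the 10 genes in each of the 9 samples, as log2(FPKM + 1), with 1 point per sample, colour for the group and shape for the sample number; a gene with no reads sits at 0. T-DC samples 2 and 3 (red square and triangle) lie above every other sample for all 10 genes, and T-DC sample 1 (red circle) lies close to the T-mDC samples.

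Elane encodes neutrophil elastase, a serine protease of the primary granule. It was at 0, 5.74 and 0.784 FPKM in N-mDC samples 1, 2 and 3, at 0, 83.2 and 32.9 FPKM in T-DC samples 1, 2 and 3, and at 0, 0.105 and 0 FPKM in T-mDC samples 1, 2 and 3. The reads behind these values were 1269 and 491 in T-DC samples 2 and 3, 91 and 14 in N-mDC samples 2 and 3, 2 in T-mDC sample 2 and 0 in the other 4. Groups overlapped, because T-DC sample 1 held no Elane read. A count of 0 allows up to 3 reads, which is 0.161 to 0.195 FPKM for Elane in these 4 samples.

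Mpo encodes myeloperoxidase, which makes hypochlorous acid from hydrogen peroxide. Its level was 0.0374, 3.48 and 0.402 FPKM in the N-mDC samples in order, 0.0489, 46.0 and 18.2 FPKM in the T-DC samples, and 0, 0.0302 and 0.206 FPKM in the T-mDC samples. T-DC sample 1, with 3 reads, stood beside N-mDC sample 1, with 2 reads, and T-mDC sample 2, with 2 reads.

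Prtn3 encodes proteinase 3, a protease close to elastase in sequence and in the genome. It was at 0.0739, 4.88 and 1.21 in N-mDCs, 0.355, 54.5 and 20.7 in T-DCs and 0.153, 0.179 and 0.0942 FPKM in T-mDCs. Every T-DC sample was above every T-mDC sample, although T-DC sample 1 held 11 reads and the T-mDC samples 5, 6 and 3.

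Ctsg encodes cathepsin G, the third of the serine proteases. Its values were 0, 1.56 and 0.533 in N-mDCs, 0.108, 21.6 and 9.37 in T-DCs and 0, 0.0501 and 0.105 FPKM in T-mDCs. T-DC sample 1, with 2 reads, lay just above the highest T-mDC sample, also with 2 reads, so the gap between those groups rested on counts too low to order them. The 0 reads in N-mDC sample 1 and T-mDC sample 1 allow up to 0.186 and 0.154 FPKM.

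The 4 primary genes kept nearly the same proportions in T-DC samples 2 and 3. T-DC sample 2 was 11.2 to 14.5-fold above the highest of the other 7 samples, which was N-mDC sample 2 for each gene, and T-DC sample 3 was 4.24 to 5.995-fold above it. Within the pair, T-DC sample 2 was 2.31 to 2.63-fold above T-DC sample 3. N-mDC sample 2 was in turn 2.93 to 8.66-fold above N-mDC sample 3.

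S100a9 and S100a8, the calprotectin subunits, were the most abundant of the 10 genes on the FPKM scale. S100a9 was at 39.9, 215 and 388 FPKM in N-mDC samples 1, 2 and 3, at 5.03, 1754 and 551 FPKM in T-DC samples, and at 1.73, 7.73 and 5.73 FPKM in T-mDC samples. S100a8 was at 13.9, 106 and 200.5 in N-mDCs, 2.33, 970.4 and 348 in T-DCs and 1.37, 2.91 and 3.60 FPKM in T-mDCs. For both genes every N-mDC sample was above every T-mDC sample and above T-DC sample 1. They differed from the other 8 genes in N-mDC sample 1, where S100a9 and S100a8 were above their levels in every T-mDC sample and the other 8 genes were at 1.43 FPKM or below.

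Ngp and Camp are proteins of the cathelicidin family, and Camp is the mouse cathelicidin CRAMP. Ngp was at 1.15, 40.6 and 42.1 in N-mDCs, 0.777, 899 and 324 in T-DCs and 0.347, 2.37 and 3.07 FPKM in T-mDCs. Camp was at 1.43, 30.2 and 20.6 in N-mDCs, 0.368, 426 and 196 in T-DCs and 0.140, 1.77 and 0.861 FPKM in T-mDCs. T-DC sample 1 lay below every N-mDC sample for both genes and below T-mDC samples 2 and 3, and above T-mDC sample 1.

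Ltf encodes lactoferrin, which binds iron, and Lcn2 encodes lipocalin 2, which binds the siderophores that bacteria use to take up iron. Ltf was at 0.148, 7.53 and 8.49 in N-mDCs, 0.0324, 144 and 43.2 in T-DCs and 0.0461, 0.660 and 0.678 FPKM in T-mDCs. Lcn2 was at 0.268, 7.25 and 8.80 in N-mDCs, 0.511, 154 and 52.0 in T-DCs and 0.364, 0.473 and 0.332 FPKM in T-mDCs. For Lcn2 every T-DC sample was above every T-mDC sample, but T-DC sample 1 and T-mDC sample 2 held 24 reads each, too few to order them. For Ltf T-DC sample 1 was the lowest of all 9 samples.

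Among the later genes, T-DC sample 2 was 4.52 to 21.4-fold above the highest of the other 7 samples and T-DC sample 3 was 1.42 to 7.69-fold above it. The smallest folds of each were those of S100a9, which was also high in N-mDC sample 3. T-DC sample 2 was 2.17 to 3.33-fold above T-DC sample 3. N-mDC samples 2 and 3 stood differently toward each other than for the primary genes, with sample 2 at 0.528 to 1.47-fold of sample 3. N-mDC sample 2 was above N-mDC sample 3 for the 4 primary genes and Camp, and below it for the other 5 genes.

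The make-up of the granule reads gives the same contrast within samples, free of how many granule transcripts a sample held. Reads on Mpo, Elane, Prtn3 and Ctsg were 8.34% of the reads on the 10 genes in T-DC sample 2 (5517 of 66126; 95% Wilson interval 8.13 to 8.56%) and 9.34% in T-DC sample 3 (2126 of 22757; 8.97 to 9.73%). The share in N-mDC sample 2 was 8.36% (445 of 5322; 7.65 to 9.14%), which overlapped the interval of T-DC sample 2. It was 1.03% in N-mDC sample 3 (87 of 8462; 0.834 to 1.27%) and 0.742% in N-mDC sample 1 (4 of 539; 0.289 to 1.89%), below every interval of the T-DC samples. Reads on S100a8 and S100a9 count in these totals. They took 37.2% of the total in T-DC sample 2, 56.1% in N-mDC sample 2 and 88.5% in N-mDC sample 1. Similar shares therefore need not mean similar proportions of the primary genes to the other later genes. Shares without S100a8 and S100a9 were not computed.

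T-DC sample 1 held 140 granule reads in all, with 16 on primary genes (11.4%; 7.16 to 17.8%), and the T-mDC samples held 71, 278 and 259, with shares of 7.04%, 3.96% and 6.95%. At those depths T-DC sample 1 could not be told from T-DC sample 2. The intervals cover counting error only. S100a8 and S100a9 took 37.2% and 35.3% of the granule reads in T-DC samples 2 and 3, 56.1% and 73.4% in N-mDC samples 2 and 3, and 88.5% in N-mDC sample 1. The 10 genes together took 0.389% and 0.148% of all reads in T-DC samples 2 and 3, 0.000759% in T-DC sample 1, 0.00338 to 0.0474% in N-mDCs and 0.000404 to 0.00152% in T-mDCs.

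**Figure D2:**
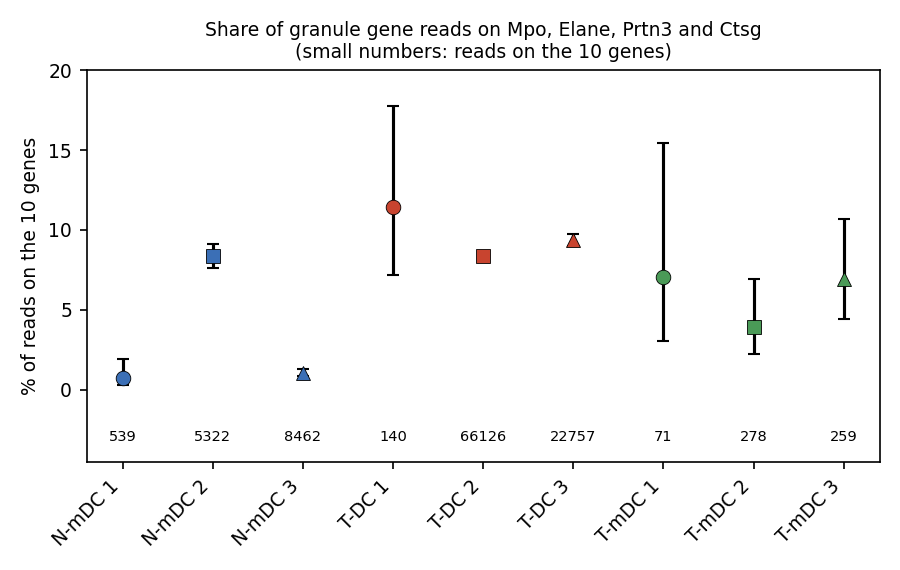
Share of the reads on the 10 granule genes that fell on Mpo, Elane, Prtn3 and Ctsg, in percent, for each sample with its 95% Wilson interval; the small numbers are the reads on the 10 genes. N-mDC samples 1 and 3 sit near 1%, while N-mDC sample 2 sits at 8.36%, beside T-DC samples 2 and 3 at 8.34% and 9.34%, and the samples with few reads have wide intervals. Reads on S100a8 and S100a9 are in the totals, and their part differed between samples.

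The question of whether T-DCs expressed more of these genes than mature cDCs of normal mice was addressed with limma on log2(FPKM + 1) over all 12746 genes. Mean levels were higher in T-DCs for all 10 genes, and 0 of 10 passed an adjusted p of 0.05, where 6.10% of tested genes were called higher and 10.3% lower in T-DCs. By unadjusted p under 0.05 the count was also 0 of 10, and voom on recovered reads called 0. Elane had the largest log2 fold change, 2.63 ± 1.44 (SE, limma adjusted p = 0.224), with a mean of 38.7 ± 41.9 FPKM (SD, n = 3) for T-DCs beside 2.18 ± 3.11 FPKM (SD, n = 3) for N-mDCs. The lowest adjusted p of the 10 was that of Ctsg, 0.160 by limma, for a difference of 2.02 ± 0.94 (SE) in log2.

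The primary genes had log2 fold changes of 2.02 to 2.63 with a median of 2.34, and the later genes a median of 2.05, against 0.05 over all tested genes. S100a8 and S100a9 had the smallest differences, 0.60 (95% interval -3.70 to 4.91) and 0.25 (-3.98 to 4.49). The direction for these 2 genes turned when N-mDC sample 1, T-DC sample 2 or T-DC sample 3 was left out. For the other 8 genes it did not turn when any 1 sample was left out.

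The calls depended on T-DC sample 1. Without it, 9 of 10 genes, all but S100a9, were called above N-mDCs by limma, and 20.5% of all tested genes were. That fit keeps the T-DC samples already known to be high, so its count describes how far 1 sample decides the calls and is no test of the granule genes. With T-DC samples 2 and 3 left out instead, leaving T-DC sample 1 alone and its spread assumed equal to that of the other groups, all 10 genes were lower than in N-mDCs, with differences of -4.65 to -0.51 in log2, 0 of 10 called by limma and 2 at an unadjusted p under 0.05. The log2 difference between T-DCs and N-mDCs therefore had opposite signs in the T-DC samples taken apart.

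Against T-mDCs, the mature cDCs of the same kind of leukemic spleen, all 10 genes had higher T-DC means, by 2.60 to 5.05 in log2. None of the 10 passed an adjusted p of 0.05 by limma (0.0977 to 0.165), where 5.44% of tested genes were called higher and 8.79% lower. All 10 had an unadjusted p under 0.05, as 14.7% of tested genes did in that direction, and voom on recovered reads gave 0 of 10 by either p. The count of 10 was 3 with T-mDC samples 2 and 3 averaged into 1, 4 with only the groups compared, 2 without T-mDC sample 1, 3 without T-mDC sample 2 or 3, and 0 without T-DC sample 2 or 3. Prtn3, Ctsg and Lcn2 had every T-DC sample above every T-mDC sample, as 16.8% of tested genes had, with the low reads in T-DC sample 1 given above.

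Ngp and S100a9 had log2 fold changes of 4.93 ± 2.16 and 5.05 ± 1.86 (SE) over T-mDCs. Median log2 fold changes were 3.28 for the primary genes and 4.82 for the later genes, against 0.07 over all tested genes. The gap between the 2 medians depended on the pseudocount of 1. With a pseudocount of 0.1 the primary genes were at 4.59 to 5.68, and all 10 genes at 4.41 to 5.68, with Elane the largest. Without T-DC sample 1, 10 of 10 were called higher by limma, where 18.3% of tested genes were, and again this count is no test, for the reason given for N-mDCs. With T-DC samples 2 and 3 left out, 4 of 10 had higher and 6 lower values in the remaining T-DC sample than in T-mDCs, with 0 called by limma and 0 at an unadjusted p under 0.05.

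T-mDCs and N-mDCs were compared to see whether mature cDCs of leukemic and normal spleens differed in granule transcripts. All 10 genes had lower values in T-mDCs, with median log2 fold changes of -0.94 for the primary genes and -2.64 for the later genes, against 0.03 over all tested genes. These differences also depended on the pseudocount. The 10 genes were at -4.80 to -0.59 with a pseudocount of 1 and at -5.10 to -1.70 with 0.1. By limma 0 of 10 passed, where 0.690% of tested genes were called higher and 1.52% lower. S100a9, at -4.80 ± 1.86 (SE, limma adjusted p = 0.242), had an unadjusted p under 0.05, as 9.60% of tested genes did in that direction, and voom called 0 of 10.

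S100a8 differed by -4.29 ± 1.89 (SE, limma adjusted p = 0.2996). For S100a8 and S100a9 every T-mDC sample lay below every N-mDC sample, as for 15.7% of tested genes. Both were called lower when the fit held N-mDCs and T-mDCs alone, by limma adjusted p of 0.0456 and 0.0303, and when T-DC sample 1 was left out (0.0296 and 0.0193). These calls turned on how the spread was estimated, since the values of the 2 groups were the same in each fit. S100a9 averaged 214 ± 174 FPKM (SD, n = 3) for N-mDCs against 5.06 ± 3.06 FPKM (SD, n = 3) for T-mDCs.

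**Figure D3:**
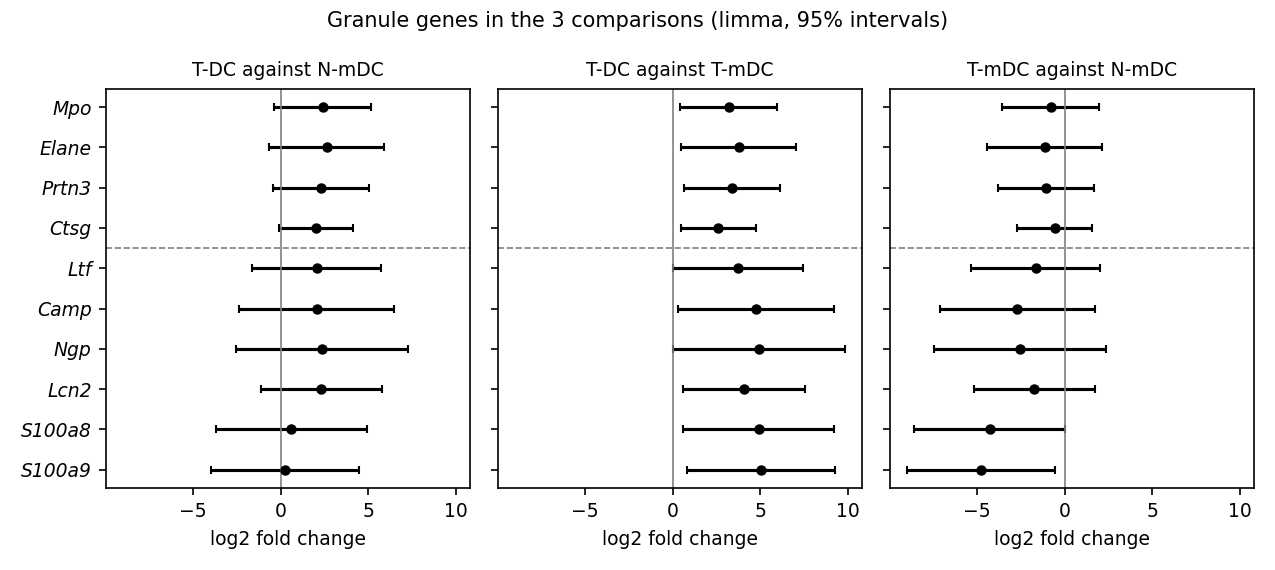
Log2 fold change of each gene in the 3 comparisons, first group minus second, as limma estimates (points) with 95% intervals (bars); primary granule genes lie above the dashed line and later genes below. All 10 intervals cross 0 for T-DCs against N-mDCs, none does for T-DCs against T-mDCs, and 1 of 10, that of S100a9, lies below 0 for T-mDCs against N-mDCs.

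By mean level the groups were ordered T-DC, N-mDC and T-mDC for all 10 genes. By limma with Benjamini-Hochberg adjustment, 0 of 10 differed beyond the spread in any of the 3 pairs of groups, the unadjusted counts being 0 for T-DCs and N-mDCs, 10 for T-DCs and T-mDCs and 1 for T-mDCs and N-mDCs. In T-DCs the SD was larger than the mean for all 10 genes.

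Other genes of the granules and their regulation were read from fixed lists. Of 8 other primary granule genes, 2 (Ms4a3 and Fcnb) had both T-DC samples 2 and 3 above the rest, beside 20.5% of all tested genes. Ms4a3 did not pass the filter for testing, so among the 5 tested genes only Fcnb did. Fcnb, which encodes ficolin B, was at 34.5 and 14.4 FPKM in T-DC samples 2 and 3, at 1.11 and 0.823 FPKM in N-mDC samples 2 and 3, and at 0.143 FPKM or below in the other 5. Ms4a3, a membrane gene of granulocyte and monocyte precursors, was at 10 and 3.64 FPKM in T-DC samples 2 and 3 and at most 0.264 FPKM elsewhere. Lyz2 (lysozyme), Srgn (serglycin) and Ctsc (cathepsin C) did not follow, and were abundant in all samples. Prss57, a serine protease gene that did not pass the filter, was highest in T-DC sample 2 at 2.11 FPKM. T-mDC sample 2 came next at 1.46 FPKM, and T-DC sample 3 was at 0.649 FPKM. Cd63 was lowest in T-DC samples 3 and 2, at 3.85 and 8.36 FPKM. Bpi was close to 0 everywhere.

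Of these 8 genes 5 were tested, with median log2 fold changes of -1.12 (T-DCs over N-mDCs), 0.09 (T-DCs over T-mDCs) and -0.69 (T-mDCs over N-mDCs). Relative to N-mDCs, Srgn was lower in T-DCs (-1.13, limma adjusted p = 0.03002). Lyz2 was higher than in T-mDCs by 1.87 (limma adjusted p = 0.0425). In T-mDCs against N-mDCs 0 of 5 were called by limma or voom, where limma called 0.690% of tested genes higher and 1.52% lower. Of the 5, 2 (Ctsc and Lyz2) were lower in T-mDCs at an unadjusted limma p under 0.05, as 9.60% of tested genes were.

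Of 13 other specific and gelatinase granule genes, 4 (Cd177, Itgb2l, Olfm4 and Chil3) had T-DC samples 2 and 3 highest, beside 20.5% of all tested genes. Itgb2l and Olfm4 did not pass the filter for testing, so among the 10 tested genes only Cd177 and Chil3 did. Cd177, a surface glycoprotein stored in specific granules, was at 46.9 and 13.5 FPKM there and 0.550 FPKM in T-DC sample 1. Hp (haptoglobin) and Pglyrp1 (a peptidoglycan recognition protein) were instead highest in T-DC sample 1, at 186 and 187 FPKM. The 10 tested had medians of 0.55, 1.55 and -0.88 in the comparisons in that order. Pglyrp1 was called higher in T-DCs relative to N-mDCs, by 1.93 in log2 (limma adjusted p = 0.0235). Pglyrp1, Hp, Cybb, Chil3 and Retnlg were called higher and Mmp25 lower in T-DCs than in T-mDCs by limma. Of all tested genes, 5.44% were called higher and 8.79% lower there. Between T-mDCs and N-mDCs 0 of 10 were called by limma or voom, where limma called 0.690% of tested genes higher and 1.52% lower. Mmp9 and Retnlg were lower in T-mDCs at an unadjusted limma p under 0.05, as 9.60% of tested genes were.

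Genes of mature neutrophils had mixed orders of samples. Mmp9, which encodes gelatinase B, was at 12.9, 19.7 and 19.8 in N-mDCs, 2.60, 17.1 and 6.55 in T-DCs and 5.84, 1.21 and 1.29 FPKM in T-mDCs. Cxcr2, the receptor by which mature neutrophils leave the marrow, was at 3.08, 3.28 and 8.29 in N-mDCs, 0.366, 3.01 and 1.94 in T-DCs and 0.209, 0.0509 and 0.0535 FPKM in T-mDCs. N-mDC sample 3 was the highest of the 9 for both genes, and for Csf3r, the receptor for G-CSF, at 54.6 FPKM. Csf3r was at 29.8, 28.9 and 16.3 FPKM in T-DC samples 1, 2 and 3, so T-DC sample 1, with few granule reads, also held it.

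Of the 8 mature neutrophil surface genes, 0 had T-DC samples 2 and 3 as the highest pair, a pattern that 20.5% of all tested genes had. Ly6g and Padi4 were highest in T-DC sample 2. Ly6g, the surface marker of mouse neutrophils, was at 0, 0.659 and 1.70 in N-mDCs, 0, 5.14 and 1.54 in T-DCs and 0, 0.0549 and 0 FPKM in T-mDCs. Its 4 highest samples were the 4 that were high for the granule genes, and it had no reads in N-mDC sample 1 or T-DC sample 1. Padi4, the enzyme that citrullinates histones in neutrophils, was at 4.03 FPKM in T-DC sample 2 and 3.33 FPKM in N-mDC sample 3, followed by 1.73 FPKM in N-mDC sample 2 and 1.63 FPKM in T-DC sample 3. The 7 tested had medians of -0.13, 1.26 and -1.35 in the same order. Between T-DCs and N-mDCs 0 were called by limma or voom, where limma called 6.10% of tested genes higher and 10.3% lower. Cxcr2 had an unadjusted limma p under 0.05. Itgam was higher in T-DCs than in T-mDCs (log2 fold change 1.39, limma adjusted p = 0.0367), and Cxcr2 was lower in T-mDCs than in N-mDCs (-2.31, limma adjusted p = 0.0357). Itgam was highest in T-DC sample 1, at 19.0 FPKM, against 12.6 and 8.04 FPKM in T-DC samples 2 and 3.

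Among 9 transcription factors of granulocyte development, 3 (Cebpe, Myb and Klf5) had T-DC samples 2 and 3 highest, beside 20.5% of all tested genes. Klf5 did not pass the filter for testing, so among the 8 tested genes only Cebpe and Myb did. Cebpe, the C/EBP factor needed for specific granules, was at 0.515, 1.55 and 0.399 in N-mDCs, 0.270, 17.9 and 7.48 in T-DCs and 0.256, 0.0834 and 0.0876 FPKM in T-mDCs. Cebpb, a factor used when granulocytes are made on demand, was highest in T-DC sample 1 at 931 FPKM, against 262 and 267 FPKM in T-DC samples 2 and 3. Spi1, which encodes PU.1, lay between 116 and 307 FPKM in all 9 samples. Of the 8 tested, 0 were called by limma or voom in any of the 3 comparisons. At an unadjusted p under 0.05 there were 0, 3 and 0, the 3 being Cebpb, Cebpd and Cebpe in T-DCs against T-mDCs. All 3 were higher in T-DCs, as 14.7% of tested genes were at that threshold by limma. Cebpe differed by 1.75 from N-mDCs (limma adjusted p = 0.163) and by 2.37 from T-mDCs (limma adjusted p = 0.0891) in log2.

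Genes whose products inhibit or sense the granule proteins were read in the same way. Of 7 inhibitor genes, 1 had T-DC samples 2 and 3 highest, Stfa1 at 3.45 and 0.928 FPKM, which did not pass the filter for testing, and of 6 receptors and partners 0 did, beside 20.5% of all tested genes. Slpi, an inhibitor of elastase and cathepsin G, was highest in N-mDC sample 2 at 224 FPKM and at 25.6 to 41.9 FPKM in T-DCs. Among the receptors, Fpr2, a formyl peptide receptor that also binds cathelicidin peptides, was called higher in T-DCs relative to N-mDCs (2.35 in log2, limma adjusted p = 0.0144) and to T-mDCs (2.20, limma adjusted p = 0.0204). It was at 57.6 FPKM in T-DC sample 1 and at 54.3 FPKM in T-DC sample 2.

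**Figure D4:**
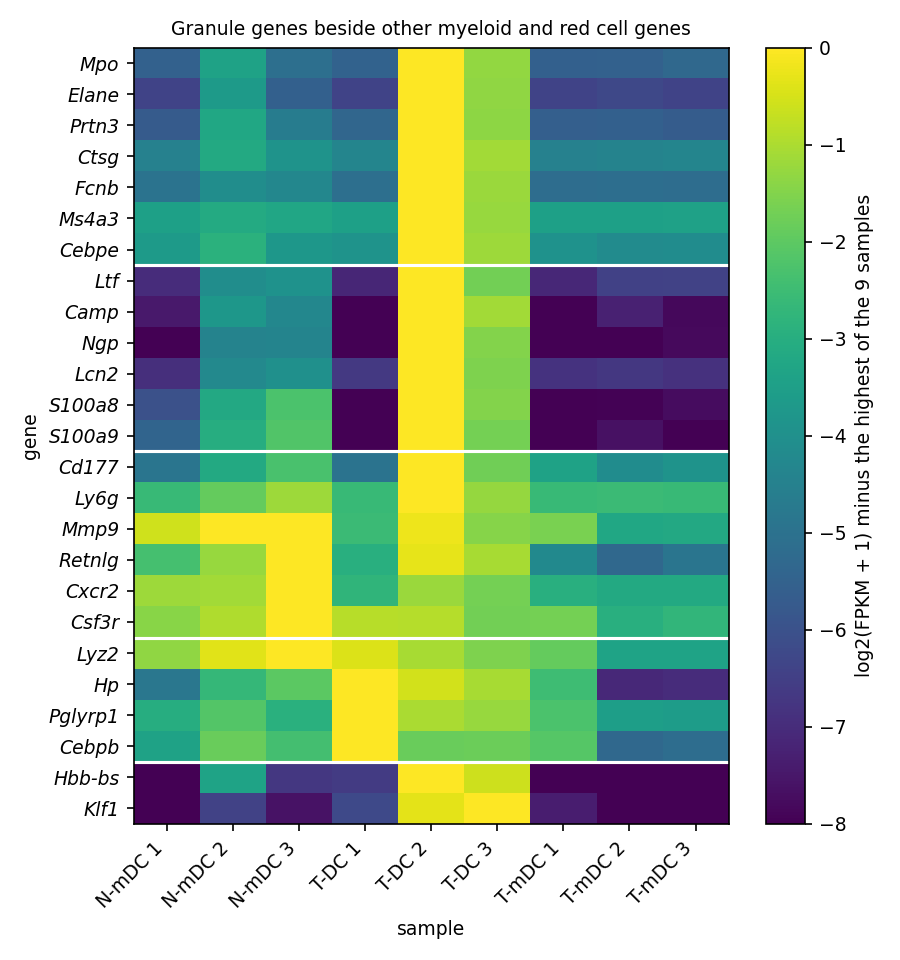
Level of 25 genes in the 9 samples as log2(FPKM + 1) minus the highest sample of that gene, so that 0 (yellow) marks the highest sample and colours below -8 are drawn as -8. The 25 genes are a chosen part of the lists, so where a block peaks reflects the choice. Other genes of these lists, such as Ctsc, Srgn and Spi1, were not highest in T-DC sample 2 and are not drawn. The first block holds primary granule genes with Fcnb, Ms4a3 and Cebpe, the next the later granule genes, then genes of mature neutrophils and their granules, then genes that T-DC sample 1 also expressed, and last a pair of red cell genes; the top blocks peak in T-DC sample 2, and Mmp9, Retnlg, Cxcr2 and Csf3r peak in N-mDC sample 3.

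Markers of other cells moved along with the granule genes in part. The 8 erythroid genes summed to 57726 and 42344 FPKM in T-DC samples 2 and 3, 604 FPKM in T-DC sample 1, 98.9 to 5351 in N-mDCs and 15.2 to 179 FPKM in T-mDCs, with none at 0 in any sample. N-mDC sample 2 was the highest of the other 7 for their sum, as it was for the primary granule genes. All 8 were called higher in T-DCs than in T-mDCs, and Car1 and Klf1 were called higher than in N-mDCs, by limma. Of all tested genes, limma called 5.44% and 6.10% higher in these 2 comparisons. By voom 3 and 0 of the 8 were called, where 687 and 726 of 12746 genes were called higher. Their part in the granule gene result was not tested.

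The 6 basophil and mast cell genes summed to 0.174 to 7.84 in N-mDCs, 0.235 to 10.4 among T-DCs and 0.0840 to 0.273 FPKM in T-mDCs, with the sums of N-mDC samples 2 and 3 and T-DC samples 2 and 3 above the rest. Mcpt8, the basophil protease, was at 0 in the other 5 samples. Of these 6 genes, 1 (Prss34) had T-DC samples 2 and 3 highest, beside 20.5% of all tested genes. The 7 eosinophil genes summed to 128 to 255 in N-mDCs, 226 to 498 among T-DCs and 46.7 to 132 FPKM in T-mDCs. Ear2 alone was 476 FPKM of the sum of 498 FPKM in T-DC sample 1. Epx, the eosinophil peroxidase, was highest in N-mDC sample 2 at 2.02 FPKM, against 0.448 and 0.457 FPKM in T-DC samples 2 and 3.

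The 6 monocyte genes summed to 228 to 403 in N-mDCs, 216 to 626 among T-DCs and 69.5 to 221 FPKM in T-mDCs. T-DC sample 1, with few granule reads, had the highest sum of the 9, but Csf1r alone was 609 FPKM of it. Ly6c2, Ccr2 and F13a1 were at 8.25, 5.38 and 0.862 FPKM in T-DC sample 1. They were highest in N-mDC sample 3, at 85.7, 26.7 and 10.6 FPKM. Of 6 early progenitor genes, 0 had T-DC samples 2 and 3 highest, beside 20.5% of all tested genes. Kit was at 2.91, 5.97 and 12.6 FPKM in T-DCs and 19.9 to 43.3 FPKM in N-mDCs, and Cd34 was at or below 1.02 FPKM in all samples. Of the 7 red pulp macrophage, 7 T lineage, 4 B lineage, 4 plasmacytoid DC and 5 MHCII genes examined, 0 had T-DC samples 2 and 3 highest. This too stands beside 20.5% of all tested genes. The 7 red pulp macrophage genes summed to 3246 FPKM in T-DC sample 1 and to 1041 and 606 FPKM in T-DC samples 2 and 3. Their sums were 1954 to 3972 FPKM in N-mDCs and 436 to 1572 FPKM in T-mDCs. The part of all these markers in the granule gene result was not tested.

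Pearson correlations of log2(FPKM + 1) over the 9 samples, across 13607 genes, give the genes whose pattern was most like the 2 sets. They describe points that share libraries and are driven by the few high samples. Among the genes closest to the mean of the primary genes were Cyp4b1-ps2 (0.997), Mir6960 (0.991), Stk11 (0.989) and Tspo (0.988). Tspo, which encodes a protein of the outer mitochondrial membrane, was at 224 and 217 FPKM in T-DC samples 2 and 3, 141 FPKM in N-mDC sample 2 and 90.3 to 105 FPKM elsewhere. Closest to the mean of the later genes were Itga2b (0.987), Prg4 (0.986), C4b (0.982), Dnajb1 (0.980) and Rgcc (0.971).

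The 2 sets can also be set against each other in this measure. Each gene is part of the mean of its own set, which raises its correlation with that mean. The later genes correlated with their own mean at 0.970 to 0.995, and the primary genes with the later mean at 0.918 to 0.941. The primary genes correlated with their own mean at 0.997 to 0.999. The later genes correlated with the primary mean at 0.837 for S100a9, 0.864 for S100a8 and up to 0.968 for Lcn2. S100a8 and S100a9 were thus the genes that followed the primary genes least, and N-mDC samples 1 and 3 were where their levels stood apart.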

How the data were processed

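Sorted spleen cells of 9 samples, 3 per group by the titles in the labels, were measured by bulk RNA-seq. The authors deposited 1 table of FPKM values per gene and sample; the study used a commercial sequencing service, the submitters' processing notes name the mm10 build, and the aligner, counting and strand are not given in the sources used here. The values times gene length gave whole reads within 0.001 for 100% of values, and these recovered reads were used for shares, depth and voom. The members and gene lists were chosen with earlier results of these data known.

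log2(FPKM + 1) was tested with limma 3.58.1 (R 4.3.3, trended empirical Bayes) in a fit of all 9 samples, for genes at 1 FPKM or more in 3 or more samples. Benjamini-Hochberg adjustment ran over all 12746 genes, with a threshold of 0.05. Fold changes are on the log2(FPKM + 1) scale and understate changes of low genes. Intervals of shares are 95% Wilson intervals. The text may name any gene of the lists, and the 5 genes outside the 10 that correlated best with each set over genes at 1 FPKM in at least 2 samples. Of these, 1 is not reported here. The fit was tested on simulated data. Alternatives were another pseudocount, other filters, TPM, quantile normalization, voom, fits of the compared groups alone, a replicate block and leaving out samples. The orders under TPM, quantile values and TMM-scaled reads were added after seeing the data. Groups of 3 were not tested for outlying samples.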

Additional observations from a re-analysis of the deposited data

How the results depend on the processing

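Over the alternatives, 0 granule gene results past the threshold turned direction. Of 197 values per comparison, 9 for T-DCs against N-mDCs, 11 for T-DCs against T-mDCs and 6 for T-mDCs against N-mDCs passed the threshold, and 16, 6 and 0 had the other sign. Rescaling to TPM moved the median log2 fold change of all genes from 0.05 to -0.07, from 0.07 to -0.23 and from 0.03 to 0.21 in the 3 comparisons in that order, and all 10 genes kept their direction there. With a stricter filter, 5 FPKM or more in 3 or more samples, 7 of the 10 genes were tested. The number of genes called depended more on the samples. For T-DCs against N-mDCs, 2096 genes were called, 1070 with only the groups compared, 1394 with T-mDC samples 2 and 3 averaged into 1, 746 with T-DC samples 2 and 3 left out, and 980 (without N-mDC sample 1) to 5030 (without T-DC sample 1) when leaving out each sample. For T-DCs against T-mDCs, 1813 were called, 1190 with the stricter filter, 1036 with only the groups compared, 540 with those 2 averaged, 741 with T-DC samples 2 and 3 left out, and 541 (without T-mDC sample 3) to 4475 (without T-DC sample 1) when leaving out each sample. For T-mDCs against N-mDCs, 282 were called, 107 with a pseudocount of 0.1, 111 with the stricter filter, 850 with only the groups compared, 23 with those 2 averaged, 849 with T-DC samples 2 and 3 left out, and 23 (without T-mDC sample 3) to 1022 (without T-DC sample 1) when leaving out each sample. Other than the fewer genes or samples in a fit, the cause was not tested.

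The sources used here do not say whether the replicate numbers pair the samples. Correlations of same-numbered deviations were -0.47 to 0.27 over the 3 comparisons, and those of differently numbered ones -0.36 to 0.43. With 3 samples per group these values cannot settle whether samples were paired. With the replicate number as a block, 1378, 1253 and 78 genes were called, and S100a9 was called higher in T-DCs than in T-mDCs (limma adjusted p = 0.0449), 1 of 10 genes against 0 without the block. The low reads of the primary genes outside T-DC samples 2 and 3 and N-mDC sample 2 limit what can be said of their levels there.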
